A study of Mus musculus with 75 samples.

Results

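Obstructed kidneys of mice lacking Veptp in the endothelium were compared with obstructed kidneys of their wild type controls, which is the comparison of 16 of the 75 kidney libraries in the series. The members were chosen by their labels alone: 8 libraries labelled VeKO and 8 labelled VeWT, all of them labelled UUO. VeKO stands for an inducible endothelial knockout (Veptp iECKO), made by crossing floxed Veptp mice with a tamoxifen-inducible Cre recombinase driven by the endothelial Cdh5 promoter. The knockout mice received tamoxifen at 4 weeks of age. The VeWT controls were littermates with the same Cre and 1 floxed Veptp allele that were not induced, so that loss of Veptp and exposure to tamoxifen cannot be told apart. The methods of the study count fewer sequenced wild type mice than there are libraries labelled VeWT, and which library this concerns was not given. Both groups were adult mice of a mixed background and of both sexes, and in both the ureter of 1 kidney had been ligated for 3 days (unilateral ureteral obstruction, UUO). The opposite, contralateral (CL) kidney served the study as the uninjured organ. RNA came from whole kidney tissue, so that fewer cells of a type and less RNA per cell cannot be told apart in any value given here.

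Veptp, whose gene is Ptprb, encodes the vascular endothelial protein tyrosine phosphatase, a receptor-type phosphatase that removes phosphate from the receptor TIE2 (gene Tek) and so holds its signalling down. TIE2 is the receptor for the angiopoietins and keeps capillaries quiescent and tight. Ureteral obstruction is known for injured tubules, loss of peritubular capillaries, and interstitial fibrosis, in which fibroblasts and pericytes lay down collagens and other matrix proteins. The comparison addresses how this response looks in the kidney RNA when the brake on TIE2 is missing from the endothelium.

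Libraries of each genotype came in 2 forms of name, 4 split (a letter and a number parted by a low line, such as H_2) and 4 plain (such as C8), and the forms differed in nearly every technical measure. Total counts ran from 178137 to 858624 among plain names and from 1071107 to 2341800 among split names, and the genes Gm42418 and AY036118, which overlap ribosomal RNA, took 9.52% to 21.8% of counts in the first form against 0.326% to 0.632% in the second. The form was therefore a covariate in the fit, and values within each form are given where they bear on a result. Xist, expressed from the inactive X chromosome of females, exceeded the summed Y-linked genes in 5 VeWT libraries, among them all 4 with plain names, and in 3 VeKO libraries. H8, H9 and G8 held at least 10 counts of both. Each number from 1 to 8 names both a UUO library (H_1 to H_8) and a CL library (G_1 to G_8), with the same dominating sex marker for 8 of 8 numbers but the same genotype label for only 4 of 8. The numbers 3 and 4 are VeWT among the UUO libraries and VeKO among the CL libraries, and 7 and 8 the reverse. Results were therefore computed again without H_3, H_4, H_7 and H_8. Summed skeletal muscle genes reached 705 CPM (counts of a gene relative to the TMM-scaled total of its library) in C8, 143 CPM in D8, 35.2 CPM in E9 and 27.1 CPM in G8, the 4 VeKO libraries with plain names, against at most 13.3 CPM in every other library, and their part in the results was not tested.

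Among 10829 genes that passed a filter on low counts, 7 fell and 1 rose in VeKO relative to VeWT obstructed kidneys at an adjusted p under 0.05 (edgeR quasi-likelihood test, Benjamini-Hochberg adjustment over all genes tested). These were 0.0646% and 0.00923% of the genes tested. The 7 genes that fell were Loxl2, Col1a2, Pdgfra, Sparc, Fbln2, Col3a1 and Col12a1, which encode matrix proteins, an enzyme that crosslinks them and a receptor of fibroblasts. The gene that rose was Cyp2a4, a cytochrome P450. A wider set passed the unadjusted test, 487 genes lower (4.5%) and 493 higher (4.55%). When libraries were scaled by their totals instead of by TMM (trimmed mean of M-values, which scales libraries to each other), the split at the same level moved to 692 lower and 248 higher. The call depends on the form of name as a covariate: without it 0 genes were called by the quasi-likelihood test, with 249 lower and 144 higher at an unadjusted p under 0.05, while the edgeR exact test, which takes no covariate, called 3 lower and 1 higher.

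Loxl2 (chromosome 14, 69608692-69695834, mm10) encodes lysyl oxidase-like 2, which crosslinks collagen. Its level ran from 31.8 to 50.6 CPM (median 40.3) in VeWT and from 5.52 to 23.9 CPM (median 18.2) in VeKO. Every VeKO library lay below every VeWT library. The log2 fold change was -1.24 (SE 0.19, adjusted p = 0.00502, edgeR), with -1.10 among plain names and -1.34 among split names. Loxl2 was 1 of 2 genes, with Cyp2a4, that stayed called whichever single library was left out.

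Of the called collagen genes, 2 form fibrils and 1 binds to them. Col1a2 (chromosome 6, 4505618-4541543), a chain of type I collagen, ran from 231 to 568 CPM (median 351) in VeWT and from 91.0 to 324 CPM (median 184) in VeKO. The ranges overlapped across forms but not within either form, where VeWT averaged 505 ± 62.1 CPM (SD) and VeKO 210 ± 93.6 CPM among plain names, and 250 ± 18.7 against 153 ± 47.4 CPM among split names. Its log2 fold change was -0.98 (SE 0.18, adjusted p = 0.0292, edgeR). Col3a1 (chromosome 1, 45311538-45349706), which forms type III collagen, ran from 294 to 776 CPM (median 572) in VeWT and from 99.1 to 409 CPM (median 228) in VeKO. H_4, at 294 CPM, was the lowest VeWT library and lay just under H_2, at 300 CPM the highest VeKO library with a split name. The log2 fold change of Col3a1 was -1.07 (SE 0.21, adjusted p = 0.0292, edgeR). Col12a1 (chromosome 9, 79598987-79721141), whose product decorates collagen fibrils, ran from 25.4 to 49.4 CPM (median 36.0) in VeWT and from 5.52 to 25.5 CPM (median 19.3) in VeKO, with G8 (25.5 CPM) and H8 (25.4 CPM) meeting at the border. Its log2 fold change was -1.15 (SE 0.22, adjusted p = 0.0292, edgeR). Col1a1, the partner chain of Col1a2, had a log2 fold change of -0.95 (SE 0.23) that did not pass (adjusted p = 0.139, edgeR).

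Matrix glycoproteins and a fibroblast receptor were the other called genes. Sparc (chromosome 11, 55394159-55420080), a collagen-binding secreted protein, ran from 374 to 858 CPM (median 552) in VeWT and from 161 to 454 CPM (median 275) in VeKO. Within each form the genotypes did not overlap, by a margin of 4 CPM between H_6 (374 CPM) and H_2 (370 CPM). The log2 fold change was -0.89 (SE 0.17, adjusted p = 0.0292, edgeR). Fbln2 (chromosome 6, 91212460-91272540), encoding fibulin 2 of elastic fibres and basement membranes, ran from 12.4 to 36.2 CPM in VeWT and up to 13.8 CPM in VeKO. C8 had no Fbln2 count, which at its depth allows up to 21.1 CPM. The fitted log2 fold change was -1.53 (SE 0.29, adjusted p = 0.0292, edgeR). Pdgfra (chromosome 5, 75151322-75198206), the PDGF receptor alpha that marks interstitial fibroblasts, ran from 34.1 to 81.1 CPM (median 58.1) in VeWT and from 11.5 to 33.4 CPM (median 28.4) in VeKO, again without overlap. Its log2 fold change was -1.08 (SE 0.20, adjusted p = 0.0292, edgeR), -1.15 and -1.06 among plain and split names.

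Cyp2a4 (chromosome 7, 26307192-26315088), a steroid-hydroxylating cytochrome P450, averaged 114 ± 30.9 CPM (SD, n = 8) in VeWT and 265 ± 89.4 CPM (SD, n = 8) in VeKO. The highest VeWT library (H_4, 185 CPM) lay above the lowest VeKO library (H_2, 137 CPM), and all others were apart. The log2 fold change was 1.20 (SE 0.19, adjusted p = 0.00502, edgeR), 1.24 among plain and 1.16 among split names. Cyp2a4 shares much of its sequence with Cyp2a5, whose own log2 fold change was 1.28 (SE 0.33) and did not pass (adjusted p = 0.195, edgeR), so reads may have been split between them. Xist exceeded the Y-linked genes in 5 VeWT and 3 VeKO libraries, and with the Xist level as a further covariate the log2 fold change of Cyp2a4 was 1.11 (SE 0.16, adjusted p = 0.00084, edgeR). With the Y-linked level instead, a fit chosen after seeing the data, it was 1.095 (SE 0.17, adjusted p = 0.00281, edgeR).

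**Figure D1:**
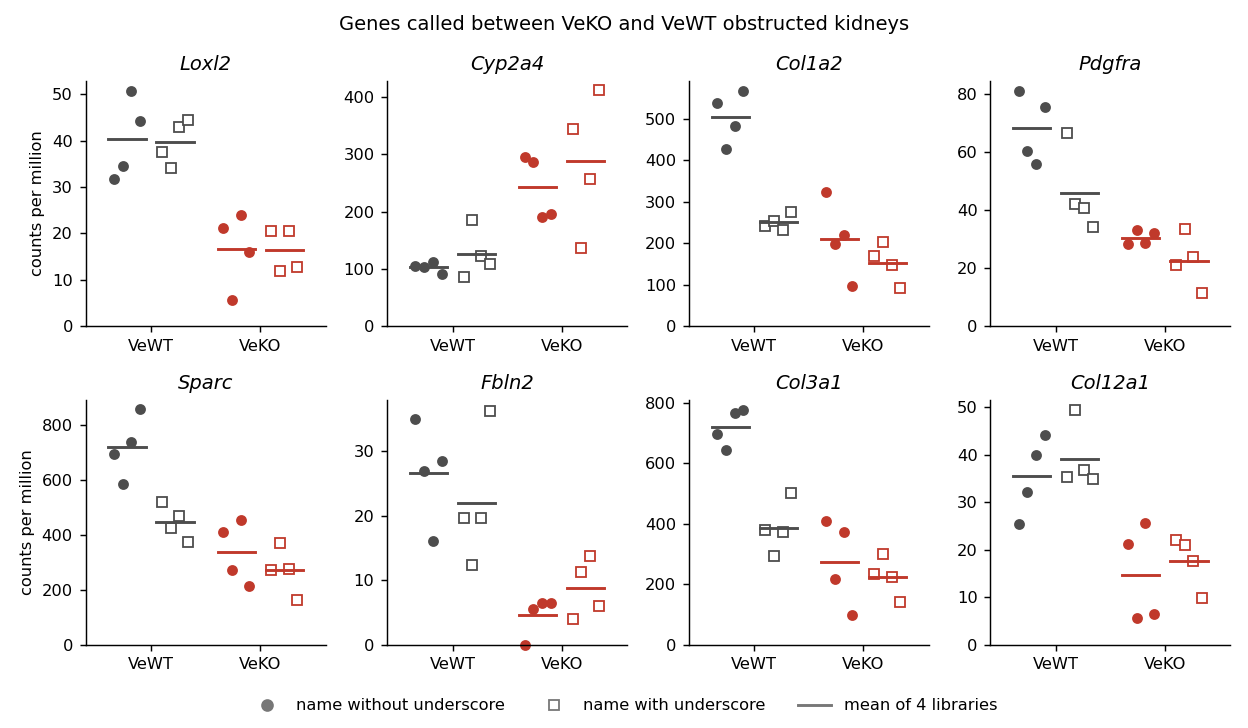
Level in CPM (y axis) of the 8 called genes in each obstructed kidney library, by genotype (VeWT grey, VeKO red), with filled circles for plain and open squares for split names and a line at the mean of each 4 libraries. Each of the 7 lower genes has both VeKO means under the VeWT mean of the same form, and Cyp2a4 has both above.

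Without overlap in both forms of name, 9 of 10829 genes were below VeWT in every VeKO library (0.0831%) and 5 above it (0.0462%). Loxl2, Col1a2, Pdgfra and Sparc were among the 9, and so were Smoc2, Lhfp, Col5a2, Adam17 and Klhl25. The 5 above were Mcee, Dnajc21, Adrm1, Dolpp1 and Hnrnpul1, and apart from genes named for their p these were picked out after their values were seen. Smoc2, a matricellular protein, had a median of 81.4 CPM in VeWT and 24.5 CPM in VeKO, and its difference of -1.05 on the log2 scale (SE 0.22) had an adjusted p of 0.0517 (edgeR). Lhfp had a median of 102 CPM in VeWT and 49.1 CPM in VeKO, at a log2 fold change of -0.90 (SE 0.19) and an adjusted p of 0.0621 (edgeR). Col5a2, of the type V collagen that nucleates fibrils, had a log2 fold change of -0.61 (SE 0.15).

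The stretches of genome before 3 of the called genes are shown because the 2 collagen genes were lower and Cyp2a4 was higher, and they are the 250 bases that end at the annotated start (RefSeq, GRCm38.p6, the assembly of mm10). A window was found for 6 of the 8 called genes, not for Loxl2 and Col12a1. Capitals mark the CCAAT box, the TATA box spelled TATAAA, the GC box spelled GGGCGG and the core of the TEAD factor motif spelled CATTCC, each searched on both strands. Col1a2 spans chr6:4505368-4505617, Col3a1 chr1:45311288-45311537 and Cyp2a4 chr7:26306942-26307191, all on the plus strand.
Col1a2: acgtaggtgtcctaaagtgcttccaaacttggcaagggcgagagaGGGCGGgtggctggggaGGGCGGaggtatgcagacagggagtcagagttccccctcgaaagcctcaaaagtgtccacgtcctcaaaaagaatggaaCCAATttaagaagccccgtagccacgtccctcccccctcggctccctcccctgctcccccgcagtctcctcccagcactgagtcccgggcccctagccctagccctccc
Col3a1: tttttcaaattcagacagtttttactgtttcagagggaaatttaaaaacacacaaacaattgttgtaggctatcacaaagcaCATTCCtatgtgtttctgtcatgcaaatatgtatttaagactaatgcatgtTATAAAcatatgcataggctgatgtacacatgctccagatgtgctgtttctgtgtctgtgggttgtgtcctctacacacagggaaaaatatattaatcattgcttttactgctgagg
Cyp2a4: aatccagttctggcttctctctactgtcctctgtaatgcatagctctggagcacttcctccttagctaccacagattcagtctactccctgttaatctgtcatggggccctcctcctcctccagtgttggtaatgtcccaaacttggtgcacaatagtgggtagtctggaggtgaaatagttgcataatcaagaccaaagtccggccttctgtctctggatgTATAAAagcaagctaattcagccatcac

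Col1a2 held the CCAAT box in 1 copy and the GC box in 2 copies. Col3a1 held the TEAD core and the TATA box, and Cyp2a4 the TATA box, in 1 copy each. Of all 32851 windows of that length, 33.8% held the CCAAT box, 32.7% the GC box, 12.4% the TATA box and 12.6% the TEAD core. The SMAD core CAGAC was present in 42.2% of all windows and in those of Col1a2, Col3a1, Pdgfra and Sparc, as well as of Cyp2a4, so that all 3 windows shown held it. A match is a run of letters and not a shown site of binding.

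Ptprb itself (chromosome 10, 116275502-116389538) ran from 27.5 to 96.2 CPM (median 43.6) in VeWT and from 13.4 to 67.2 CPM (median 28.4) in VeKO, from 5 to 84 counts a library. The genotypes overlapped in both forms. Of the libraries whose numbers carry the other genotype label among the CL libraries, H_3 and H_4 (VeWT) held 28.2 and 29.0 CPM and H_7 and H_8 (VeKO) 23.0 and 16.2 CPM. The other split names held 27.5 and 36.2 CPM in VeWT and 13.4 and 29.1 CPM in VeKO. The mean difference was -0.63 on the log2(CPM + 1) scale, with p = 0.0102 in an exact two-sided permutation test within the forms (4900 ways) and 0.051 after adjustment over 5 values per library. Permuted without regard to the form (12870 ways), p was 0.118, and 0.463 after adjustment. Tested across all genes, the log2 fold change was -0.59 (SE 0.19, adjusted p = 0.348, edgeR), -0.61 and -0.60 within the forms, -0.58 (SE 0.24) without H_3, H_4, H_7 and H_8 and -0.25 (SE 0.22) with their genotypes exchanged. Counts cover the whole gene and not the floxed stretch alone, so they do not check the deletion. In CL kidneys of the same arm the log2 fold change of Ptprb was -0.44 (SE 0.21, adjusted p = 0.784, edgeR). None of the 4 other values per library passed, with adjusted p from 0.343 to 0.692 in the same exact permutation test. These were total counts, genes detected, and the shares from mitochondrial genes and from Gm42418 and AY036118. The test averages over the forms, so it does not show that depth was balanced within a form. Among plain names the median total was 296667.5 in VeKO and 554846 in VeWT, and among split names 1789736 and 1341435.5. The share from Gm42418 and AY036118 among plain names ran from 9.519% to 21.84% in VeKO and from 9.752% to 13.38% in VeWT.

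Endothelial genes were mostly on the lower side in VeKO, none of them called. Of 31 endothelial cell markers, 25 were tested, and 24 of these had a negative and 1 a positive log2 fold change, with a median of -0.45 against 0.02 for all genes. At an unadjusted p under 0.05, 14 were lower and 1 was higher. Cdh5 (VE-cadherin, the adhesion molecule of endothelial junctions) was at a median of 37.6 CPM in VeWT and 21.6 CPM in VeKO, a log2 fold change of -0.78 (SE 0.24). Pecam1, another junctional protein, was at medians of 46.7 and 26.6 CPM, a log2 fold change of -0.60 (SE 0.21). Adgrl4, an adhesion receptor of endothelium, had -0.60 (SE 0.17), and Emcn, the capillary sialomucin endomucin, -0.08 (SE 0.21). Ramp2, a subunit of the adrenomedullin receptor, was the 1 higher marker, at 0.41 (SE 0.15). The median was -0.22 over the 15 markers tested among plain names and -0.53 over 25 among split names, so that it was negative in both. Leaving out 1 library gave from 4 to 17 lower markers and medians from -0.53 to -0.34, with 4 without H_8 (VeKO) and 6 without H_3 (VeWT).

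The summed level of these 31 markers ran from 1030 to 1590 CPM in VeWT and from 791 to 1190 CPM in VeKO. No marker was at 0 in all 16 libraries, while Tek was at 0 in D8, where the depth allows up to 16.6 CPM. When the genotypes of H_3, H_4, H_7 and H_8 were exchanged, the median came to -0.03, and without these libraries it was -0.32.

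Of the list for the angiopoietin-TIE system 7 of 12 genes were tested, all with a negative log2 fold change and none called. The tested genes include Ptprb itself and Aplnr, which is a receptor of another ligand. Tek, encoding TIE2, had -0.44 (SE 0.24), and Tie1, its co-receptor, -0.53 (SE 0.22). Aplnr, the apelin receptor of sprouting endothelium, had -1.19 (SE 0.26, adjusted p = 0.0662, edgeR), and Svep1, a large matrix protein that binds TIE1, -1.05 (SE 0.28, adjusted p = 0.233). Angpt2 was too low to be tested. The VEGF list was split, with Vegfd at -1.01 (SE 0.29) and the receptors Kdr at -0.56 (SE 0.26) and Flt1 at -0.35 (SE 0.23), while Vegfa stood at 0.07 (SE 0.18). Of 4 tested genes of endothelial activation (Icam1, Vcam1, Edn1, Klf4), 0 passed either the adjusted or the unadjusted test, with log2 fold changes from -0.30 to 0.26.

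**Figure D2:**
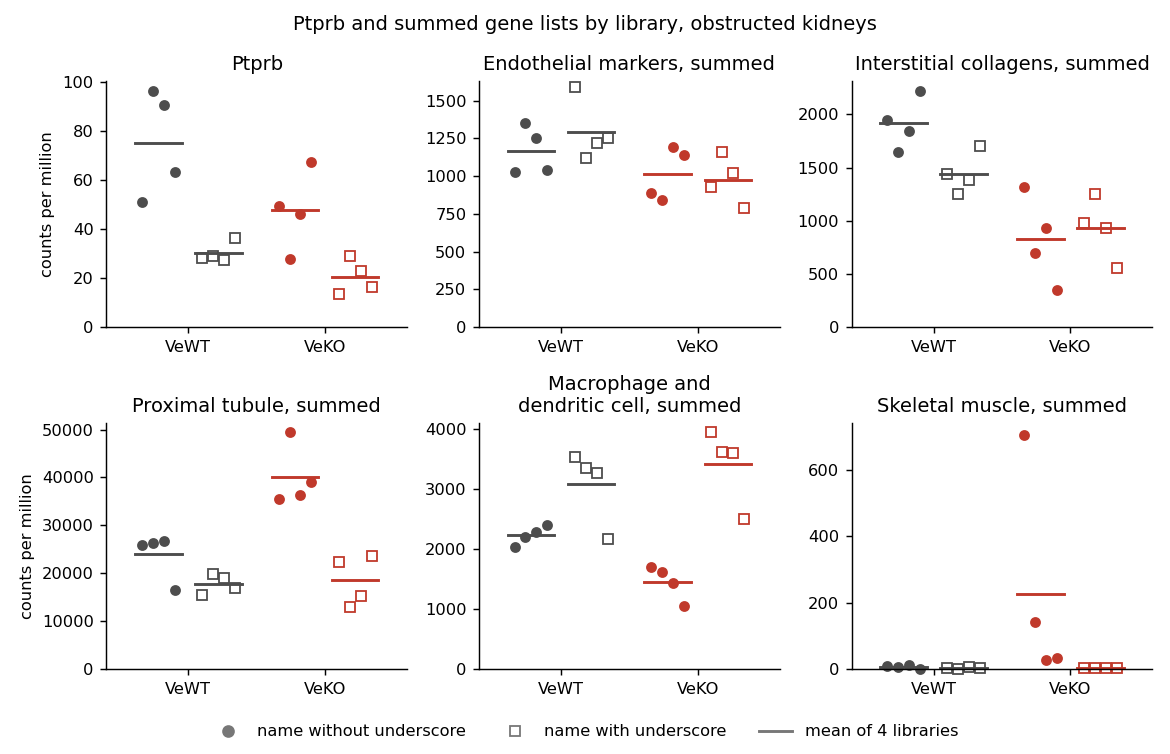
Level in CPM (y axis) of Ptprb and of 5 summed gene lists in each obstructed kidney library, by genotype (VeWT grey, VeKO red), with filled circles for plain and open squares for split names and a line at the mean of each 4 libraries. Interstitial collagens are lower in VeKO in both forms, proximal tubule and macrophage sums separate the genotypes only among plain names, and C8 holds 705 CPM of skeletal muscle genes.

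Matrix genes made up most of the calls. All 13 tested interstitial collagens had a negative log2 fold change (median -0.63), and 3 were called and 10 lower at an unadjusted p under 0.05. Their summed level ran from 1250 to 2220 CPM in VeWT and from 349 to 1320 CPM in VeKO, and did not overlap among plain names (1650 to 2220 against 349 to 1320 CPM). Among split names 1250 CPM was both the lowest VeWT and the highest VeKO sum at this rounding. Of 22 glycoproteins and proteoglycans 21 were negative (median -0.64), 2 were called and 16 were lower at an unadjusted p under 0.05, among them Fn1 (fibronectin) at -0.78 (SE 0.18, adjusted p = 0.0922, edgeR) and Dcn (decorin) at -0.64 (SE 0.17). Among 23 proteases, crosslinkers and inhibitors, 1 was called and 11 were lower at that level. Lox, the founding lysyl oxidase, stood at -1.28 (SE 0.27), Timp2, an inhibitor of matrix metalloproteinases, at -0.75 (SE 0.17), and Serpinh1, the collagen chaperone, at -0.60 (SE 0.14). With the genotypes of H_3, H_4, H_7 and H_8 exchanged, the medians came to -0.22 for the interstitial collagens, with 1 gene lower at an unadjusted p under 0.05, -0.12 for the glycoproteins, with 1 lower, and -0.15 for the proteases, with 0 lower. Without these 4 libraries they were -0.70, -0.50 and -0.45. Basement membrane genes had a median of -0.30 over 18, with 8 lower at an unadjusted p under 0.05, Col4a2 (-0.66, SE 0.16) among them. Over 19 alternative fits and sample sets their median ran from -0.57 to -0.08, with 0 to 12 genes lower.

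Of 10 tested fibroblast and pericyte markers 9 were negative (median -0.53), 1 was called and 5 were lower at an unadjusted p under 0.05, with Cd248 at -1.29 (SE 0.31) and the pericyte receptor Pdgfrb at -0.62 (SE 0.20) beside the called Pdgfra. The pericyte genes Cspg4 and Notch3 stood at -0.03 (SE 0.17) and 0.02 (SE 0.23), and the median of the list came to -0.05 when the genotypes of H_3, H_4, H_7 and H_8 were exchanged. Their summed level ran from 391 to 565 CPM in VeWT and from 238 to 411 CPM in VeKO. All 18 tested contractile genes were negative (median -0.42), none was called, and 8 were lower at an unadjusted p under 0.05. Over 19 alternative fits and sample sets that median ran from -0.65 to -0.14, with 0 to 10 genes lower. Acta2, the smooth muscle actin of myofibroblasts, was at a median of 123 CPM in VeWT and 80.5 CPM in VeKO, or -0.73 on the log2 scale (SE 0.18, adjusted p = 0.162, edgeR). Of the PDGF ligands, Pdgfb stood at -0.11 (SE 0.22), Pdgfa at 0.09 (SE 0.19), Pdgfc at 0.08 (SE 0.26) and Pdgfd at -0.33 (SE 0.25). In the TGF-beta pathway 6 of 14 tested genes were lower and 1 higher at an unadjusted p under 0.05, the latter being the inhibitor Smad7 (0.63, SE 0.26). The 6 lower genes became 2 without H_8 and 3 without H_3 or H_6.

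The study named 14 genes of matrix modification for these libraries, and all 14 had a negative log2 fold change here (median -0.74), 13 of them at an unadjusted p under 0.05 and Col1a2 and Col3a1 called. Adamts1, a protease, was the 1 that did not pass, at -0.17 (SE 0.20). As the study named this list for the same samples, it is not independent evidence of its direction. Over the 12 and 14 members tested in each form the median was -0.79 among plain and -0.67 among split names. With the genotypes of H_3, H_4, H_7 and H_8 exchanged it came to -0.18, with 1 of 14 lower at an unadjusted p under 0.05, and without these 4 libraries to -0.63, with 11 lower.

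**Figure D3:**
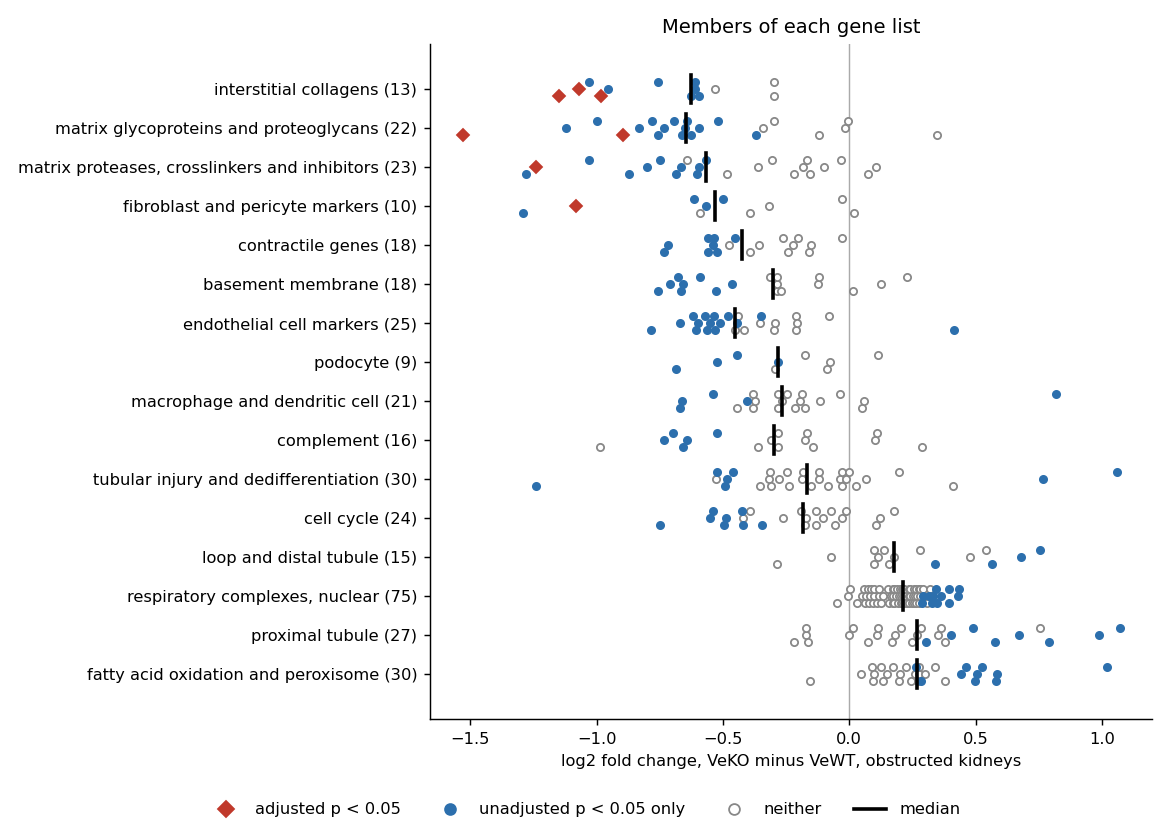
Log2 fold change between VeKO and VeWT obstructed kidneys for each tested member of 16 gene lists, the number of members in brackets, with red diamonds for called genes, blue points for an unadjusted p under 0.05 only, open circles for the rest and a black bar at the median. Medians run from -0.64 for matrix glycoproteins to 0.27 for fatty acid oxidation.

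Tubular genes lay on the other side, though not in both forms of name. Of 27 proximal tubule genes 23 were positive (median 0.27), none called and 8 higher at an unadjusted p under 0.05. Leaving out 1 library gave from 4 to 13 higher genes, with 4 without H9, D8, H_1 or H_8, 5 without C8 and 13 without H_2. Miox, an enzyme of inositol breakdown, stood at 0.58 (SE 0.20) and Slc22a6, the organic anion transporter OAT1, at 0.67 (SE 0.23). The list's median was 0.48 among plain names and 0.01 among split names. Its summed level among plain names was 35600 to 49500 CPM in VeKO against 16600 to 26800 CPM in VeWT, and among split names the ranges overlapped (13000 to 23700 against 15400 to 19800 CPM). Within the plain-name sums Kap, the kidney androgen-regulated protein, averaged 5950 CPM in VeWT and 14300 CPM in VeKO. Xist exceeded the Y-linked genes in all 4 VeWT libraries with plain names and in 2 of the VeKO ones. The part of these uneven sex markers in the sums was not tested. Loop and distal tubule genes had 0.48 over 13 and -0.04 over 15 in the 2 forms, and 0.18 over all 16 libraries. Leaving out 1 library moved the last median to between 0.11 (without H9) and 0.27 (without H_7). Klk1, tissue kallikrein, stood at 0.75 (SE 0.21) and Slc12a3, the thiazide-sensitive cotransporter, at 0.57 (SE 0.18). Metabolic lists were positive in both forms: 29 of 30 genes of fatty acid oxidation and peroxisomes (median 0.27, 0.34 and 0.07 within the forms) and 73 of 75 nuclear genes of the respiratory complexes (median 0.21, 0.25 and 0.15). The 12 respiratory genes higher at an unadjusted p under 0.05 became from 5 (without H_8) to 27 (without H_2) when 1 library was left out, with 6 without H9, 7 without H8 or H_6 and 22 without H_4, and the 10 genes of fatty acid oxidation became 6 without H_8 and 17 without H_2. Acaa1b, a peroxisomal thiolase, stood at 0.58 (SE 0.16) and was not called.

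Injury genes had both signs. Of 30 genes of tubular injury and dedifferentiation 23 were negative and 7 positive (median -0.17), with 5 lower and 2 higher at an unadjusted p under 0.05, and 8 lower without H_6 or H_7. Their median was -0.11 without H9 and -0.23 without C8. Havcr1, encoding kidney injury molecule 1, ran from 484 to 1210 CPM in VeWT and from 301 to 1220 CPM in VeKO, almost the same span, and differed by -0.25 on the log2 scale (SE 0.20, adjusted p = 0.762, edgeR). Krt19, a keratin of dedifferentiated tubules and of urothelium, was at a median of 43.6 CPM in VeWT and 18.3 CPM in VeKO (-1.24, SE 0.26, adjusted p = 0.0621, edgeR). The highest Krt19 levels, 94.0 CPM in H_3 and 96.6 CPM in H_6, both VeWT, were in the libraries with the highest sums of urothelial genes, 196 and 140 CPM, and the part of urothelium in the difference was not tested. Gdf15, a stress-induced cytokine, was at 18.7 and 27.9 CPM (1.06, SE 0.22, adjusted p = 0.0517, edgeR), and its 4 VeKO libraries with split names (43.1 to 90.5 CPM) lay above all VeWT libraries. Among plain names Gdf15 ran from 5.32 to 15.8 CPM in VeWT and from 7.05 to 12.7 CPM in VeKO, so that the ranges overlapped there. Cell cycle genes had a median of -0.18 over 24, with 8 lower at an unadjusted p under 0.05, Cenpf (-0.75, SE 0.23) the first of them, and 4 lower without H_6 or H_1 and 5 without E9.

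Immune lists depended on the form of name. Macrophage and dendritic cell genes had a median of -0.27 over 21, but -0.76 among plain and 0.04 among split names, where 17 and 21 members were tested. Complement genes had -0.30 over 16, and -0.79 over 14 and -0.07 over 16 in the 2 forms, so that both contrasts between forms rest in part on different genes. The 5 macrophage genes lower at an unadjusted p under 0.05 became from 2 (without H_8) to 8 (without H_2), with 3 without C9, G9, H9, H_3, C8, D8 or E9. The macrophage median was -0.17 without G8 and -0.37 without H_7. Mrc1, the mannose receptor, stood at -0.66 (SE 0.23), or -1.31 among plain and -0.34 among split names, and Adgre1, encoding F4/80, at -0.67 (SE 0.25), while Cd14, the endotoxin co-receptor, stood at 0.82 (SE 0.27), with means of 34.3 CPM in VeWT and 25.1 CPM in VeKO among plain names and of 70.4 and 178 CPM among split names. The chemokine Ccl5 was at a median of 9.36 CPM in VeWT and 29.1 CPM in VeKO (1.41, SE 0.37, adjusted p = 0.222, edgeR). Neutrophil markers were too low to be tested (0 of 11), and their summed level stayed at or under 117 CPM. No gene was called for a genotype difference that differed between the forms (0 by the edgeR quasi-likelihood test and 0 by DESeq2, with 413 higher and 267 lower at an unadjusted p under 0.05), so the gap between the medians is a description.

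The remaining lists held no called gene. Podocyte genes had a median of -0.28 over 9, and collecting duct genes 0.05 over 15. Interferon-stimulated genes had -0.02 over 22, but -0.41 over 14 among plain and 0.28 over 22 among split names. Cytosolic ribosomal proteins had -0.01 over 76, with -0.17 and 0.14 in the 2 forms. Immediate-early genes stood at 0.20 over 13, antioxidant and metallothionein genes at 0.17 over 20, mitochondrially encoded genes at 0.17 over 13 and genes of endoplasmic reticulum stress at -0.06 over 21. Among plain and split names immediate-early genes had 0.01 over 8 and 0.34 over 13, and mitochondrially encoded genes 0.45 and 0.01. Chemokines and cytokines as a list had 0.11 over 12, with -0.15 over 6 among plain and 0.18 over 12 among split names. Adipocyte genes had -0.55 and erythrocyte genes -0.38, over 4 tested members each, and lymphocyte genes -0.12 over 3. These medians moved with single libraries: the adipocyte median was -0.09 without H_3 and -1.17 without H_8, the erythrocyte median -0.22 without C9 and -0.67 without H_8, and the podocyte median -0.12 without D8 and -0.15 without H9. With 1 library left out the lymphocyte median ran from -0.29 (without H_7) to 0.03 (without E9) and the interferon median from -0.26 (without H_2) to 0.10 (without H_8). The medians of collecting duct, ribosomal protein and chemokine genes also took both signs, from -0.04 to 0.19, from -0.09 to 0.04 and from -0.03 to 0.16, and that of immediate-early genes reached 0.35 without G8. Adrenal genes summed to at most 10.8 CPM, with Cyp11b1, Hsd3b1, Th and Dbh at 0 throughout, and urothelial genes to at most 196 CPM.

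**Figure D4:**
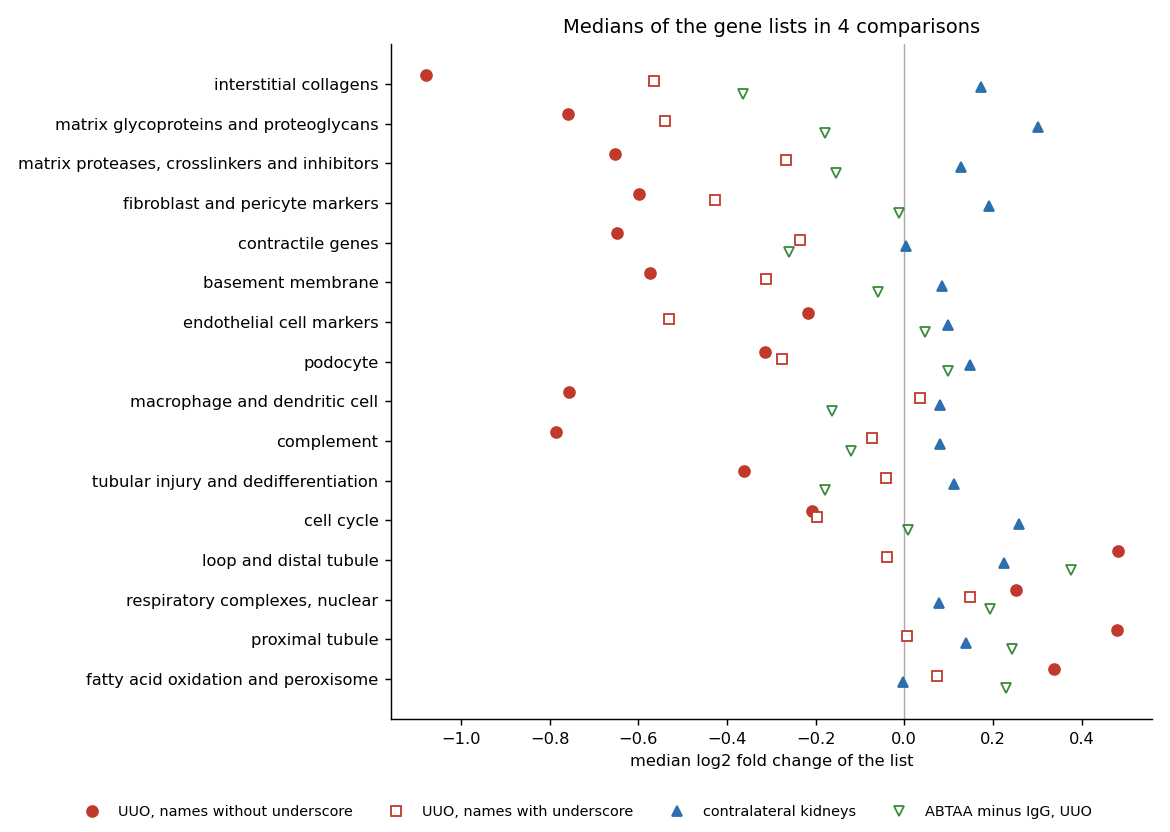
Median log2 fold change of 16 gene lists between VeKO and VeWT in obstructed kidneys with plain (filled circles) and split names (open squares), in contralateral kidneys (triangles), and between ABTAA and IgG in obstructed kidneys (open inverted triangles). Contralateral values include G_3, G_4, G_7 and G_8, whose numbers carry the other genotype label among the UUO libraries. Interstitial collagens stand at -1.08 and -0.56 in the obstructed kidneys of the Veptp arm, over 9 and 13 tested members. They stand at -0.36 under ABTAA and 0.17 in contralateral kidneys.

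In CL kidneys (13 libraries, 7 VeWT and 6 VeKO) the matrix, fibroblast and endothelial marker lists had positive medians, while some other lists had negative ones. G_3, G_4, G_7 and G_8 are among these libraries, although their numbers carry the other genotype label among the UUO libraries. The CL medians and fold changes given here include them. Interstitial collagens had a median of 0.17, glycoproteins 0.30, fibroblast markers 0.19 and endothelial markers 0.10 between VeKO and VeWT. The angiopoietin-TIE system had -0.13 over 7 genes, TGF-beta genes -0.03 over 14, chemokines and cytokines -0.05 over 12, lymphocyte genes -0.60 over 3 and erythrocyte genes -1.23 over 4. Loxl2 stood at 0.31 (SE 0.36), Col1a2 at 0.48 (SE 0.31), Pdgfra at 0.04 (SE 0.34) and Cyp2a4 at 0.02 (SE 0.24). Whether the genotype difference itself differed between UUO and CL kidneys was tested across 11916 genes, and none of the 8 called genes passed (Loxl2 adjusted p = 0.433, Col1a2 0.428, Sparc 0.353, edgeR). That fit had no term for the mouse, although a CL kidney comes from a mouse with an obstructed kidney. The 1 gene that passed was Smpdl3b. With numbers 1, 2, 5 and 6 alone, whose labels match in both kidneys, and the number as a block (8 libraries, chosen after seeing the data), Serpina6 passed. Smpdl3b stood at 6.94 (SE 1.71, adjusted p = 0.399, edgeR), against 4.95 (SE 0.76) over all libraries. In the same blocked fit the interaction of Col3a1 was 1.20 (SE 0.34, adjusted p = 0.574) and that of Col1a2 0.34 (SE 0.34), of the other sign than over all libraries. Sparc, at 0.26 (SE 0.29), also had the other sign, while Loxl2, at -0.44 (SE 0.81), and Cyp2a4, at 0.25 (SE 0.29), kept theirs. Pdgfra stood at 0.32 (SE 0.45), Fbln2 at -2.75 (SE 1.2) and Col12a1 at -0.23 (SE 0.76) there. The called genes are therefore not shown to have a genotype difference in obstructed kidneys alone.

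Obstruction without any Veptp allele in play was read from the IgG mice, in which UUO and CL kidneys were compared over 7315 of the same genes. There 1415 genes rose (19.3%) and 1701 fell (23.3%) with obstruction (edgeR, adjusted p under 0.05). Of the 301 of these genes that were lower in VeKO at an unadjusted p under 0.05, 191 (63.5%) rose and 7 (2.33%) fell with obstruction in IgG mice. Of 387 higher genes 248 (64.1%) fell and 8 (2.07%) rose. Col3a1 rose by 3.71, Col1a2 by 2.74, Loxl2 by 2.26, Sparc by 1.99 and Pdgfra by 0.93 on the log2 scale in IgG mice, while Cyp2a4 fell by 1.26. Over all the genes that rose in IgG mice the genotype difference had a median of -0.10, with 980 of 1415 negative, and over those that fell 0.16, with 1388 of 1701 positive. Havcr1 rose by 7.07 and Pdgfb by 2.10 in IgG mice without a called genotype difference.

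**Figure D5:**
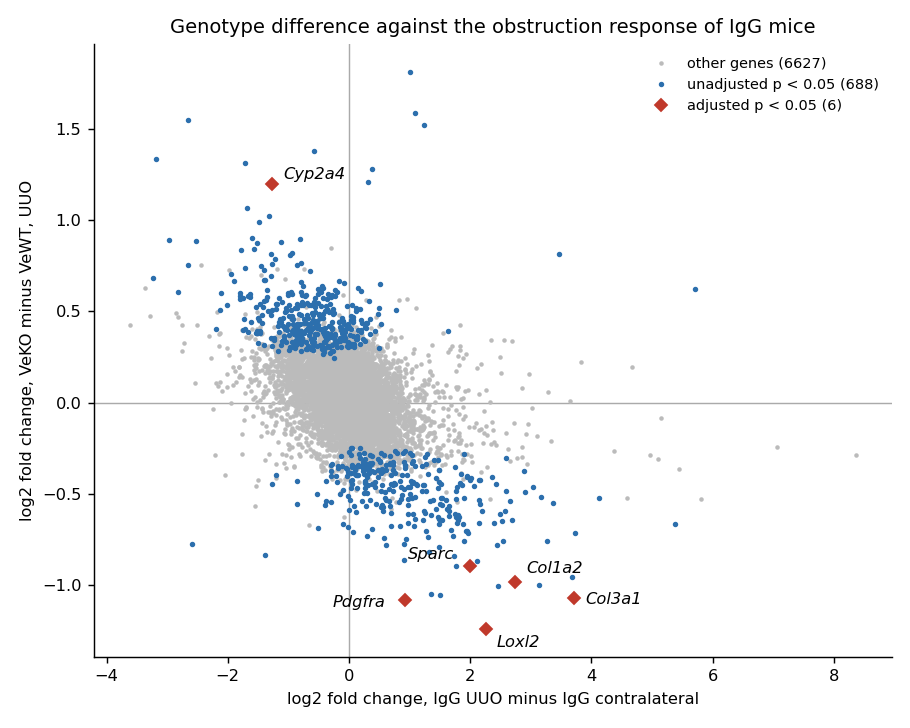
Log2 fold change between VeKO and VeWT obstructed kidneys (y axis) against that between obstructed and contralateral kidneys of IgG mice (x axis) for 7315 genes, with 688 genes at an unadjusted genotype p under 0.05 in blue and 6 called genes as red diamonds. Col1a2, Col3a1, Sparc, Loxl2 and Pdgfra lie at the lower right and Cyp2a4 at the upper left.

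ABTAA, an antibody that clusters angiopoietin 2 and so activates TIE2, was given to other mice of the series, with IgG as control, and their 15 UUO libraries share none with the Veptp arm. Between ABTAA and IgG obstructed kidneys 0 genes were called by the edgeR quasi-likelihood test, with 241 higher and 164 lower at an unadjusted p under 0.05. Col1a2 stood at -0.33 (SE 0.18), Col3a1 at -0.39 (SE 0.19), Col1a1 at -0.43 (SE 0.22), Loxl2 at -0.07 (SE 0.18), Pdgfra at 0.13 (SE 0.22) and Cyp2a4 at 0.03 (SE 0.21). The endothelial marker median was 0.05 there. The difference between the Veptp and the ABTAA effects was called for 0 genes by edgeR and 0 by DESeq2 (225 higher and 236 lower at an unadjusted p under 0.05 by edgeR). For Loxl2 it was -1.17 (SE 0.25, adjusted p = 0.279, edgeR).

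The number of calls varied with the libraries in the fit. Without H_3, H_4, H_7 and H_8 only 1 gene was called in each direction, and with their genotypes exchanged 0. In the exchanged fit the log2 fold changes shrank to -0.47 for Loxl2, -0.45 for Col1a2, -0.65 for Col3a1, -0.33 for Sparc, -1.03 for Fbln2, -0.04 for Pdgfra, -0.03 for Col12a1 and 0.42 for Cyp2a4. Without the 4 libraries Loxl2 stood at -1.27, Pdgfra at -0.81, Col12a1 at -0.87 and Cyp2a4 at 1.18, and of these Cyp2a4 was called. Leaving out H_2, a VeKO library with a split name, raised the calls to 47 lower and 18 higher, while leaving out G9, H9 or H_3 (VeWT) left 1 lower. With D8, H_7 or H_8 (VeKO) left out 2 lower genes were called, and with H_6 (VeWT) or E9 (VeKO) left out 3. Leaving out the 4 libraries under 400000 counts (H9, C8, D8 and E9) left 0 calls, with 468 lower and 507 higher at an unadjusted p under 0.05, and the interstitial collagen median at -0.61. Among plain names alone Cyp2a4 rose, and Hp, encoding haptoglobin, fell by 2.98 on the log2 scale (SE 0.45, adjusted p = 0.0163, edgeR), where it was at -1.08 among split names. Among split names alone 0 genes were called (366 higher and 358 lower at an unadjusted p under 0.05).

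Besides Cyp2a4 and Gdf15, the genes highest by p in VeKO were Gm42375 (1.31), Gm10800 (1.59), Csrp2 (0.55), Trappc5 (0.56), Cyp2d9 (1.55), Gm10801 (1.81), Cyp2a5 (1.28) and Mcee (0.54), none of which passed adjustment. Cyp2d9, a male-biased cytochrome P450, ran from 5.32 to 38.8 CPM in VeWT and from 12.8 to 144 CPM in VeKO, and the part of the uneven sex markers of the groups in it was not tested. Gm10800 and Gm10801 are repeat-rich models with near copies elsewhere, and Gm10800 ran from 1.57 to 580 CPM within VeWT alone. Csrp2, a LIM-domain protein, Trappc5, of a vesicle tethering complex, and Mcee, of propionate breakdown, had SE from 0.13 to 0.14 and the same sign in both forms.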

How the data were processed

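Kidney RNA of 16 UUO libraries (8 VeWT, 8 VeKO) was analysed from the raw count table the authors deposited, which holds unnormalised counts per gene. Per the labels, libraries followed Smart-seq3. The submitters' processing notes name STAR 2.7.3a, UMI-tools 1.1.4, featureCounts (Subread 1.4.6-p5) and mm10. No annotation or strand setting is given in the sources used here, and overlapping or antisense genes cannot be separated. Each sample was sequenced in 4 wells that the authors merged. Total counts ran from 178137 to 2341800. Limits for counts of 0 (3 counts) cover counting error only.

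Counts were fitted in edgeR 4.0.16 (R 4.3.3) with TMM, filterByExpr and a quasi-likelihood test of genotype with form of name as covariate, called at an adjusted p under 0.05. CL, ABTAA and IgG libraries entered the 4-group and IgG fits only. CPM are TMM-scaled. On simulated data for this comparison over 10829 genes, 87% of 100 genes changed by 1 on the log2 scale and 100% of 100 changed by 2 were recovered. Beside these, 21 of 10629 unchanged genes were called. Counts were simulated independently for each gene and library. They held no label conflict, no mix of sexes and no effect shared within a library beyond depth and form, so these rates need not hold for the real libraries. DESeq2 1.42.0, limma 3.58.1 and other filters, scalings, covariates and sample sets were alternatives. No 2 libraries were identical. The labels give separate libraries, not animals per library, so p-values measure the spread between these samples.

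Named genes were Ptprb, genes the study names, the 10 lowest p in each direction, up to 4 of each list and called interaction genes. Col5a2, Hp, Vegfa, Pdgfa, Pdgfc, Cspg4, Notch3, Serpina6 and genes without overlap in both forms were named after their values were seen. The comparison, lists and tests were chosen with earlier results of these data known.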

Additional observations from a re-analysis of the deposited data

Results flagged for a closer look

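Smpdl3b, a phosphodiesterase of membrane lipids, differed in its genotype effect between UUO and CL kidneys by 4.95 on the log2 scale (SE 0.76, adjusted p = 0.00114, edgeR quasi-likelihood test of the interaction). Its median in CL kidneys was 9.92 CPM in 7 VeWT and 0.404 CPM in 6 VeKO libraries, 3 of which had no count and none of which had more than 2 counts. The CL libraries include 4 whose number stands for the other genotype among the UUO libraries. With the matching numbers 1, 2, 5 and 6 alone and the number as a block the difference was 6.94 (SE 1.71, adjusted p = 0.399, edgeR). In UUO kidneys the medians were 15.5 CPM in VeWT and 16.6 CPM in VeKO.

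In 44 groups of 8 libraries examined for single values far from the rest, 8 values stood apart by Dixon's criterion, and chance flags about 1 in 20 groups. Of the called genes these were Cyp2a4 in VeWT (H_4, 185 CPM), Pdgfra in VeKO (H_8, 11.5 CPM) and Fbln2 in VeKO (C8, 0 CPM). The others were, all in VeKO, Smoc2 (G8, 74.9 CPM), Krt19 (C8, 0 CPM, where 3 counts are 21.1 CPM), Lox (E9, 0 CPM, where 3 counts are 9.59 CPM), Havcr1 (E9, 301 CPM) and Tek (D8, 0 CPM, where 3 counts are 16.6 CPM). The highest and lowest values are of 1 library each, and 5 of the 8 were in C8, D8 or E9, all under 400000 counts.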

How the results depend on the processing

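Against 7 genes lower and 1 higher, the numbers called lower and higher were 0 and 0 without the form covariate, with the genotypes of H_3, H_4, H_7 and H_8 exchanged, without libraries under 400000 counts and among split names. They were 1 and 1 among plain names and without H_3, H_4, H_7 and H_8, 3 and 1 by the exact test, 4 and 2 in the fit of 4 groups, 4 and 3 after thinning, 7 and 2 with legacy dispersions, 12 and 2 by limma voom, 14 and 2 without TMM, 17 and 4 by DESeq2, 22 and 8 with Xist as a covariate, and 95 and 77 with no filter. Added after seeing the data, 2 and 2 were called without libraries holding both sex markers and 15 and 7 with the Y-linked level as covariate. Leaving out 1 library gave 1 to 47 lower and 1 to 18 higher. The cause was not tested. The UUO against CL test called 5 genes by DESeq2, and without TMM the median form difference moved from 0.04 to 0.15. Pdgfb, not called, reversed to 0.029 without H_3, H_4, H_7 and H_8, 0.14 with them exchanged and 0.042 without libraries of both sex markers, and ran from -0.23 to 0.012 when 1 library was left out, the highest without G8. The other genes examined this way kept their sign but not their size: with the 4 libraries exchanged Pdgfra shrank to -0.04, Col12a1 to -0.03, Timp2 to -0.14 and Fn1 to -0.19. The medians of the interstitial collagen, glycoprotein and endothelial lists shrank there to -0.22, -0.12 and -0.03. After adjustment Ptprb kept its side of the threshold with other pseudocounts and when permuted across forms, while its unadjusted p in that permutation test moved from 0.0102 to 0.118. No paired analysis was run between the genotypes because the labels give no pairing of VeKO with VeWT libraries. Between UUO and CL kidneys, added after seeing the data, numbers 1, 2, 5 and 6 gave 0 genes without the block and 1 with the number as replicate block (same-number correlations across genes 0.128 and 0.379). Depth limits low genes most in C8, where 3 counts are 21.1 CPM.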
